A study of Mus musculus with 12 samples.

Results

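The hearts compared here came from mice labelled Prkca T497A and from wild-type mice, both taken 1 week after sham surgery, so the comparison asks how the mutant left ventricle differed from the wild-type one without pressure overload. Its members were the 3 T497A sham libraries and the 3 wild-type sham libraries, 6 of the 12 RNA-seq libraries of the series, chosen by library name (2 of the T497A sham columns leave out the T of the allele name). All mice were operated on at 10 weeks of age and sampled at 11 weeks. The other 6 libraries, 3 T497A and 3 wild type, came from mice with transverse aortic constriction (TAC), a narrowing of the aorta set with a 27-gauge needle that overloads the left ventricle. The labels do not give sex, strain, zygosity or how the allele was made, and nothing in them says that the 3 libraries of a group came from separate mice, so the p-values cover the spread among libraries alone. Left ventricle is the labelled tissue and cardiomyocyte the labelled cell type.

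Prkca encodes protein kinase C alpha, the main conventional protein kinase C of the mouse ventricle, which is activated by calcium and diacylglycerol downstream of Gq-coupled receptors and is known for lowering contractility. The kinase becomes competent only after phosphorylation of a threonine in its activation loop, the residue that T497A replaces by alanine. Prkca lies on chromosome 11 (GRCm38 chr11:107933387-108343928, minus strand), and the codon of that threonine lies in exon 13 of the 17 exons of the transcript ENSMUST00000059595 (GRCm38 chr11:107978267-107978269). The wild-type coding sequence around it is shown because it is the mutated site, read 5′ to 3′ along the transcript with this codon in capitals.

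Prkca around the T497A codon: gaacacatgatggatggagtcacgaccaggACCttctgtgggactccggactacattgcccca

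Counts per gene do not show which base stands in this codon, so the genotype could not be read from them.

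The 6 sham libraries held 58932759 to 69523154 counts. Log expression correlated at 0.981 to 0.984 between T497A sham libraries, at 0.985 to 0.986 between wild-type sham libraries and at 0.973 to 0.979 between the groups, which describes pairs of libraries and was not tested. The mitochondrial genome took 16.0 to 17.3% of counts in T497A sham libraries and 19.1 to 21% in wild-type sham libraries. All 10 cardiomyocyte markers were detected, with a summed level of 83888 to 85782 counts per 1000000 counts (CPM, on library totals scaled by TMM factors) in T497A sham and 79247 to 87000 CPM in wild-type sham. Fibroblast and endothelial markers were detected as well, 18 of 18 and 20 of 20, so the libraries carried RNA of the other cells of the ventricle and not of cardiomyocytes alone.

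Xist and the 4 Y-linked list genes tested separated the 2 groups completely. Xist, the RNA that silences 1 X chromosome in female cells, stood at 215, 160 and 176 CPM in T497A sham libraries, against 0.751, 0.624 and 0.575 CPM in wild-type sham libraries. Ddx3y, a Y-linked RNA helicase gene, stood at 0.261, 0.396 and 0.0999 CPM in T497A sham libraries, against 108, 104 and 104 CPM in wild-type sham libraries. In both TAC groups Xist was at most 0.722 CPM and Ddx3y at least 73.6 CPM. The Y-linked genes Eif2s3y, Kdm5d and Uty were likewise at most 0.122 CPM in T497A sham and at least 18.9 CPM in wild-type sham. The T497A label and the Xist-high, Y-low state therefore cannot be told apart in this comparison, and no library can be left out to separate them. Beside Xist, 6 of the other 11 X inactivation and escape genes tested rose in T497A sham: Kdm6a (0.80 ± 0.10 log2 units with its standard error), Kdm5c (0.67 ± 0.07), Pbdc1 (0.64 ± 0.10), Eif2s3x (0.60 ± 0.08), Ddx3x (0.46 ± 0.05) and Utp14a (0.37 ± 0.09). Only Utp14a of these lost its call in an alternative, for example without wild-type sham 1 (adjusted p = 0.11) or 3 (0.083) or without T497A sham 1 (0.056) or 3 (0.11).

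Transcripts that differ between inbred strains also varied among libraries of 1 group. H2-Ea, a class II histocompatibility gene that is silent in C57BL/6 mice, stood at 21.2, 0 and 0 CPM in T497A sham, against 0.0341, 0 and 0 CPM in wild-type sham. After TAC it was 0 in all 3 T497A libraries, against 7.67, 26.8 and 0 CPM in wild type. Ifi202b, a variable interferon-inducible gene, stood at 0.0327, 0.107 and 2.23 CPM in T497A sham, against 0.136, 0.0367 and 0 CPM in wild-type sham, and was 3.76 to 5.92 CPM in wild-type TAC. None of the 7 tested members of this list was called between the sham groups, and the part of strain background in the results below was not tested.

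Some autosomal transcripts also grouped the libraries across their labels. Of the 2 shown here, Gpr179 lies on chromosome 11, at -11.0 Mb from the Prkca start site, and Eno1b on chromosome 18. Gpr179 stood at 8.43 to 13.6 CPM in T497A sham, against 0.0734 to 0.205 CPM in wild-type sham, and at 0.0455 to 0.462 CPM in T497A TAC, against 2.44 to 5.72 CPM in wild-type TAC. Eno1b was at 4.41 to 8.75 CPM in T497A sham, against at most 0.375 CPM in wild-type sham, and at most at 0.769 CPM in T497A TAC, against 5.59 to 6.71 CPM in wild-type TAC. Among the sham libraries both genes were high only in the Xist-high ones, and both were also high in wild-type TAC, which was Xist-low. No TAC library was Xist-high, and the part of that state in these genes was not tested. The counts hold no check of the genotype labels, and whether libraries or labels were exchanged was not tested, so each genotype difference here is one between libraries as labelled.

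Across all 17699 genes tested, 1024 were called at an adjusted p under 0.05, 5.79% of those tested, by edgeR's quasi-likelihood test with Benjamini-Hochberg adjustment, which gives every adjusted p in the text. Of these, 529 were higher in T497A sham (2.99% of genes tested) and 495 lower (2.8%). Most changes were modest: the median absolute log2 fold change was 0.57 among the called genes and 0.16 among all genes tested, and 747 called genes changed less than 2-fold. A change of at least 2-fold was found for 170 higher and 107 lower genes, and one of at least 4-fold for 85 higher and 27 lower. Of the called genes, 987 were autosomal (510 higher, 477 lower, of 17093 tested) and 30 lay on the X chromosome, where 5.48% of 547 genes were called. On the Y chromosome 6 of 7 genes tested were called, 5 lower and 1 higher in T497A sham. Groups did not overlap for 1018 of the 1024, and for 26.4% of all genes tested.

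The number of calls moved with single libraries. Leaving out T497A sham 1 gave 679 calls and leaving out T497A sham 3 gave 592. It was 546 without wild-type sham 1, 505 without wild-type sham 2 and 537 without wild-type sham 3, and 1607 without wild-type TAC 2. That library is in neither group compared, but it enters through the shared spread, the gene filter and the TMM factors. Without it 18181 genes were tested. The DESeq2 test on the same counts called 1697. With library totals in place of TMM factors 730 genes were higher and 375 lower, so that 66.1% of calls were higher against 51.7% with TMM, while the median of all genes shifted by 0.05.

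**Figure D1:**
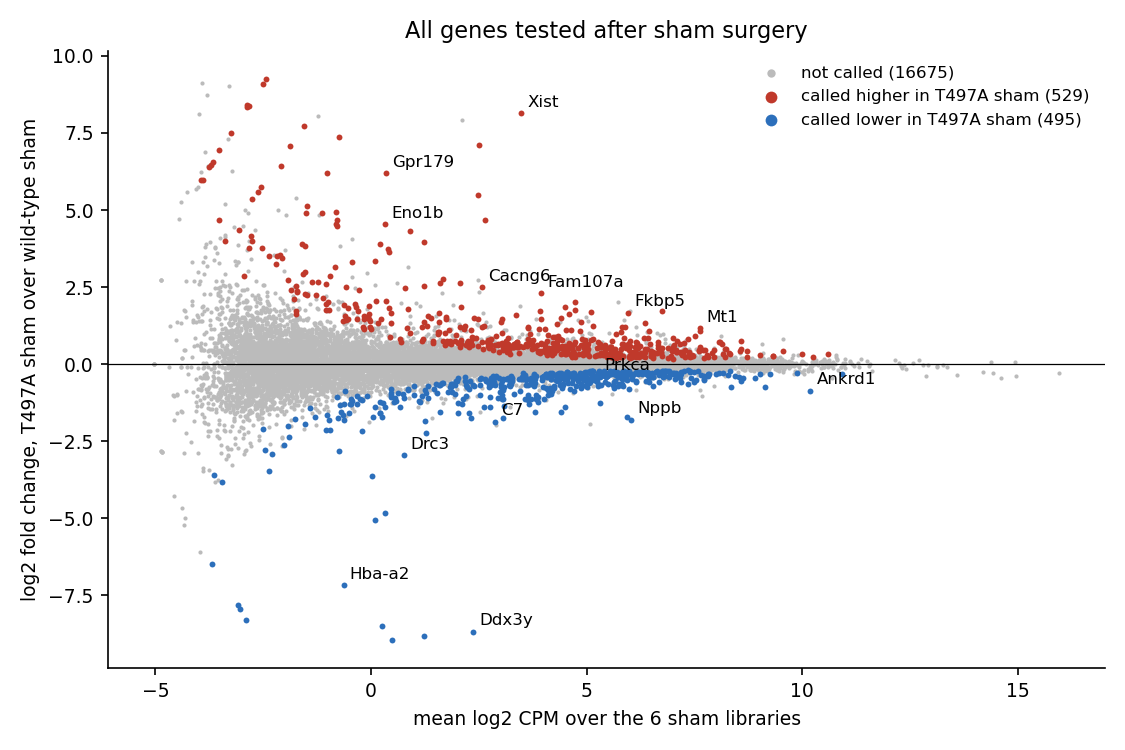
Each point is 1 of the genes tested, with its mean log2 CPM over the 6 sham libraries on the horizontal axis and its log2 fold change, T497A sham over wild-type sham, on the vertical axis. Red points are the 529 genes called higher in T497A sham and blue points the 495 called lower, and most called genes lie within 1 log2 unit of 0.

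Prkca itself was lower in the libraries labelled T497A sham. It stood at 35.7, 34.7 and 31.1 CPM in T497A sham, against 47.4, 43.5 and 42.2 CPM in wild-type sham. The groups did not overlap, and the log2 fold change was -0.39 ± 0.07 (adjusted p = 0.0056). Every one of the 18 alternatives kept the call, with adjusted p between 8.3e-05 and 0.034. After TAC the difference was -0.12 (adjusted p = 0.21), and the difference between the 2 differences, 0.27 ± 0.10, did not pass the test (adjusted p = 0.061). Among 32 genes of protein kinase C isoforms, upstream kinases and partners, Prkca and Mtor (-0.24 ± 0.06) fell and none rose, with a median of -0.03 beside 0.00 for all genes tested. The falls were 6.25% of the list, beside 2.8% of all genes. The call for Mtor, a kinase whose complex primes protein kinase C for activity, was lost without T497A sham 2 (adjusted p = 0.075) or 3 (0.11) and without wild-type sham 1 (0.10) or 3 (0.10).

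Several glucocorticoid-responsive genes were higher in the libraries labelled T497A sham. Glucocorticoids bind a receptor that enters the nucleus and acts on genes carrying its response element, and in the heart they are known to raise genes such as Fkbp5, Klf15 and the metallothioneins. Of the 21 members tested, 9 rose in T497A sham and none fell, beside 2.99% of all genes higher and 2.8% lower, and all 21 had a positive fold change, with a median log2 fold change of 0.81 beside 0.00 for all genes tested. In 12 members all T497A sham libraries were above all wild-type sham libraries, which was the case for 12.9% of all genes. The list was written with earlier results of these data known, so these counts describe its members and are not an independent test.

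Fkbp5 (chromosome 17, 28399094 to 28517527), a chaperone partner that restrains the glucocorticoid receptor, stood at 115, 115 and 105 CPM in T497A sham, against 33.5, 26.8 and 45.0 CPM in wild-type sham. All T497A sham libraries were far above every wild-type sham library, and the log2 fold change was 1.67 ± 0.32 (adjusted p = 0.018). Klf15 (chromosome 6, 90462576 to 90475238), a transcription factor of amino acid and lipid use in heart and muscle, stood at 129, 102 and 114 CPM in T497A sham, against 65.0, 65.6 and 61.2 CPM in wild-type sham. Its wild-type libraries lay close together, and the log2 fold change was 0.84 ± 0.10 (adjusted p = 0.00025). Hif3a (chromosome 7, 17031507 to 17062427), a member of the hypoxia-inducible factor family, stood at 5.88, 5.06 and 4.78 CPM in T497A sham, against 1.52, 1.78 and 1.69 CPM in wild-type sham. It rose by 1.65 ± 0.28 log2 units (adjusted p = 0.0035).

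Mt1 (chromosome 8, 94179082 to 94180327), a metal-binding metallothionein, stood at 367, 240 and 295 CPM in T497A sham, against 111, 129 and 162 CPM in wild-type sham. T497A sham 1 was the highest of the 6, and the log2 fold change was 1.17 ± 0.17 (adjusted p = 0.0038). Cdkn1a (chromosome 17, 29090976 to 29100727), the cell cycle inhibitor p21, stood at 64.4, 25.8 and 42.4 CPM in T497A sham, against 10.3, 12 and 14.3 CPM in wild-type sham. The spread within T497A sham was wide, and the log2 fold change was 1.85 ± 0.33 (adjusted p = 0.013). Zbtb16, a zinc finger repressor, stood at 308, 301 and 257 CPM in T497A sham, against 168, 125 and 119 CPM in wild-type sham (1.07 ± 0.24, adjusted p = 0.033). The stress-activated kinase gene Map3k6 (1.31 ± 0.31), the leucine zipper gene Tsc22d3 (0.81 ± 0.19), which is X-linked, and the sulfotransferase gene Sult1a1 (0.77 ± 0.15) were the other members called higher.

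Members that did not pass included Mt2, at 18.6, 9.25 and 12.5 CPM in T497A sham against 3.96, 7.10 and 7.44 CPM in wild-type sham (adjusted p = 0.052). Sgk1, a kinase of sodium handling, stood at 80.3, 83.0 and 88.7 CPM in T497A sham against 50.0, 70.1 and 84.5 CPM in wild-type sham, and the groups overlapped (adjusted p = 0.36). Pdk4, which holds back glucose oxidation, stood at 1834, 534 and 811 CPM in T497A sham against 567, 666 and 577 CPM in wild-type sham (adjusted p = 0.38). Its value in T497A sham 1 stood apart from the rest of the group.

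**Figure D2:**
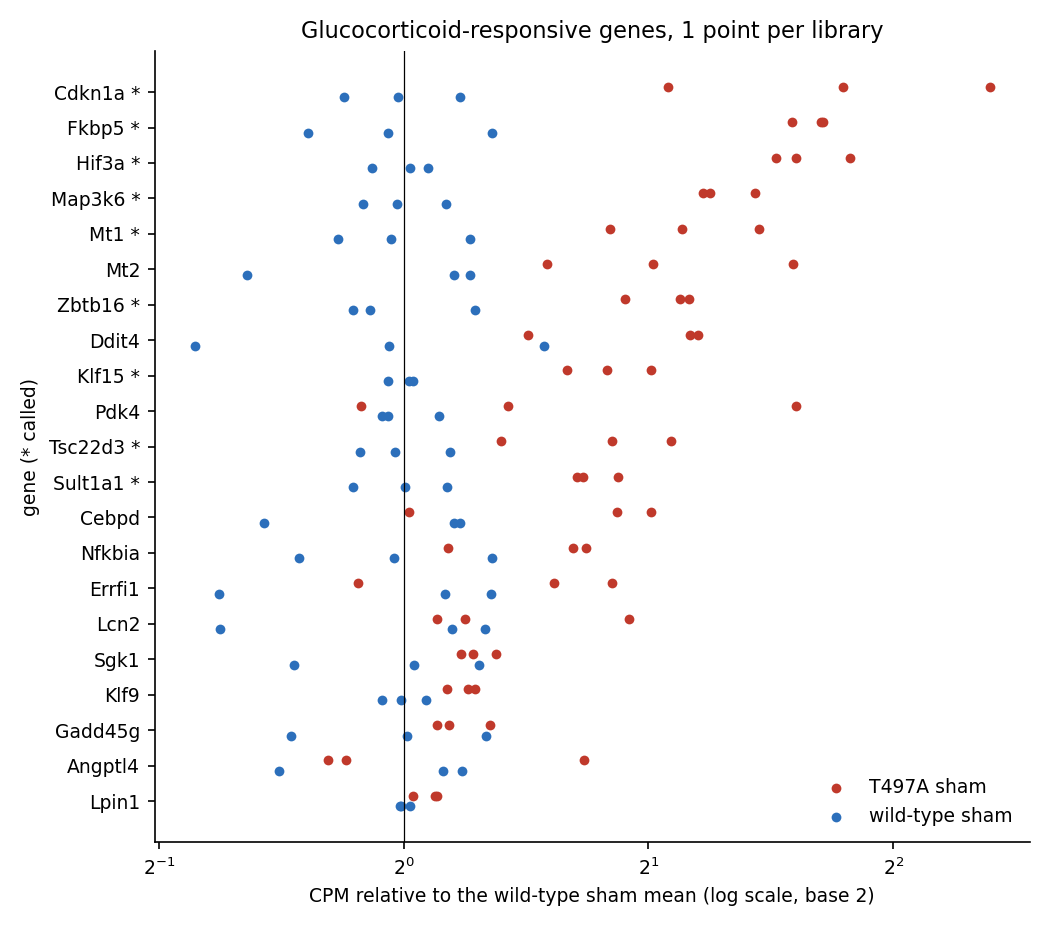
Each row is 1 of the 21 glucocorticoid-responsive genes tested and each point 1 library, placed on a base 2 log axis by its CPM relative to the wild-type sham mean of that gene, with T497A sham in red and wild-type sham in blue. The 9 starred genes were called higher, and in Fkbp5, Hif3a and Klf15 the red and blue points are clearly apart.

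Klf15 and Hif3a were called under all 18 alternatives. The number of members called was 4 without T497A sham 1, 4 without wild-type sham 1 and 3 without wild-type sham 2. Fkbp5 missed the threshold without T497A sham 1 (adjusted p = 0.053) and without wild-type sham 1 (0.076) or 2 (0.071). The call of Sult1a1 was lost without the same 3 libraries (0.050, 0.059 and 0.057), and that of Cdkn1a without wild-type sham 1 (0.060) or 2 (0.057). In the fit of the 2 sham groups alone Mt1 (0.054), Cdkn1a (0.079) and Tsc22d3 (0.11) missed the threshold. Map3k6 missed it whichever sham library was left out (0.070 to 0.14). Tsc22d3 missed it without T497A sham 1 (0.11) or 3 (0.12), wild-type sham 1 (0.13), 2 (0.13) or 3 (0.061), or wild-type TAC 2 (0.062). Zbtb16 missed it without T497A sham 1 (0.096), 2 (0.075) or 3 (0.066) and without wild-type sham 2 (0.12) or 3 (0.11). Map3k6, Tsc22d3 and Zbtb16 also missed it without the gene filter and with replicate number as a block.

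After TAC the glucocorticoid-responsive members were not uniformly higher in T497A: 5 were called higher and 3 lower, with a median of -0.01, in a comparison that called 35.7% of all genes. The genotype difference itself changed between surgeries for 10 of the 21 by the interaction test, which called 29.5% of all genes. Fkbp5 stood at 15.7, 33.6 and 40.1 CPM in T497A TAC, against 39.8, 46.5 and 38.2 CPM in wild-type TAC. Its interaction was -2.15 ± 0.44 (adjusted p = 0.0065). For Klf15 the difference was positive after both surgeries, 0.84 after sham and 0.62 after TAC, and the interaction, -0.22 ± 0.14, did not pass (adjusted p = 0.26).

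Promoters were read from RefSeq (GRCm38.p6), 250 bases before to 50 bases after each start site, and searched for the letters of a glucocorticoid receptor element, GNACA and TGTNC with 3 bases of any kind between them, which read together the same on both strands. The search was chosen after the values of this list were seen. A match was found in 3 of the 18 listed genes with a promoter in the table (Map3k6, Mt1 and Sgk1), in 8 of 381 genes called higher (2.1%), in 2 of 370 called lower (0.5405%) and in 54 of 12388 genes tested (0.4359%). The 8 were Amy1, Fam107a, Lrrc52, Map3k6, Mt1, Slc10a6, Strit1 and Tinagl1. A match describes letters in this window and does not show a site, and the windows below are printed because they hold it in genes with values in this section, in the direction of transcription with the match in capitals.

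Mt1 (GRCm38.p6 chr8:94178955-94179047, plus strand): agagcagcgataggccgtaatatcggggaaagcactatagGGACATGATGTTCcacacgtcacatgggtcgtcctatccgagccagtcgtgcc
Map3k6 (GRCm38.p6 chr4:133240597-133240689, plus strand): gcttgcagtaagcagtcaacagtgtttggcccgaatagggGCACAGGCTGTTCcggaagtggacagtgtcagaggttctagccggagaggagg
Sgk1 (GRCm38.p6 chr10:21993662-21993754, plus strand): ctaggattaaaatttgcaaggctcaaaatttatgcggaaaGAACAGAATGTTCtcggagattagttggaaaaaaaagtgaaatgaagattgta
Fam107a (GRCm38.p6 chr14:8309845-8309937, minus strand): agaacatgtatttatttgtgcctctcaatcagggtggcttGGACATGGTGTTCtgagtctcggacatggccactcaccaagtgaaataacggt

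The match ended 81 bases before the start site of Mt1, 168 before that of Map3k6, 175 before that of Sgk1 and 105 before that of Fam107a. Of these 4, Sgk1 was the only one not called. Fam107a, an actin-bundling protein known to respond to glucocorticoids, was not on the list and was named by the size of its change. It stood at 37.0, 34.5 and 31.2 CPM in T497A sham, against 5.12, 7.59 and 8.22 CPM in wild-type sham (2.30 ± 0.28, adjusted p = 0.0012). The groups were far apart after sham, whereas its levels after TAC were 3.93, 7.09 and 9.66 CPM in T497A and 4.84, 5.56 and 5.16 CPM in wild type.

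Among genes of ventricular stretch, a few fell in T497A sham and none rose. Nppb (chromosome 4, 147985788 to 147987205), which encodes B-type natriuretic peptide, released from stretched cardiomyocytes, stood at 33.4, 45.7 and 28.9 CPM in T497A sham, against 162, 90.4 and 124 CPM in wild-type sham. All T497A sham libraries were lower, and the log2 fold change was -1.80 ± 0.24 (adjusted p = 0.0033). Ankrd1 (chromosome 19, 36111961 to 36120099), a stretch-sensing ankyrin repeat protein of the sarcomere, stood at 757, 936 and 907 CPM in T497A sham, against 1736, 1647 and 1341 CPM in wild-type sham (-0.86 ± 0.10, adjusted p = 0.00019). Both calls held under all 18 alternatives. Synpo2l, a Z-disc protein, fell by 0.43 ± 0.09 log2 units and lost its call without wild-type sham 1 (adjusted p = 0.055).

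These 3 were the only ones called among 28 genes of the stretch and fetal programme, none of which rose, and their list had a median of -0.07. The falls were 10.7% of the list, beside 2.8% of all genes. Nppa, the atrial natriuretic peptide gene, stood at 124, 103 and 241 CPM in T497A sham against 84.7, 96.4 and 84.2 CPM in wild-type sham, and did not pass (adjusted p = 0.25). Myh7, the slow myosin heavy chain, stood at 755, 304 and 181 CPM in T497A sham against 226, 208 and 224 CPM in wild-type sham (adjusted p = 0.34), with T497A sham 1 the highest. Myh6 (0.08 ± 0.10) and Acta1 (-0.22 ± 0.32) did not pass either. The 10 atrial markers tested, Nppa among them, summed to 1465 to 2656 CPM in T497A sham and to 1162 to 1424 CPM in wild-type sham, with a median log2 fold change of 0.71. T497A sham 3 held the highest sum and wild-type sham 3 the lowest, and Myl7, the atrial light chain, stood at 63.6, 74.4 and 261 CPM in T497A sham, against 55.7, 84.5 and 6.64 CPM in wild-type sham. The part of atrial RNA in the level of Nppa was not tested.

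Immediate early genes, which many stimuli induce within minutes, were mostly lower where they were called. Egr1 (chromosome 18, 34859823 to 34864984) stood at 9.37, 11.5 and 11.8 CPM in T497A sham, against 25.9, 25.3 and 20.5 CPM in wild-type sham. Its groups were well apart (-1.13 ± 0.11, adjusted p = 6.6e-05), and the call held in all alternatives. Of 25 genes tested, Fos (-1.30 ± 0.31) and Btg2 (-0.64 ± 0.15) also fell and Maff (1.18 ± 0.23) rose. That is 4% higher and 12% lower, beside 2.99% and 2.8% of all genes. Fos was called neither without any 1 of T497A sham 1, 2 or 3 nor without wild-type sham 1 or 2 (adjusted p 0.080 to 0.10). It also missed the threshold with limma-voom, without the gene filter, with replicate number as a block and in the fit of the 2 sham groups alone. Without the filter and in that fit of the sham groups Btg2 was lost too. Btg2 also lost its call without T497A sham 1 (0.11), 2 (0.067) or 3 (0.098) or wild-type TAC 2 (0.056), and Maff lost its call without wild-type sham 1 (0.059) or 2 (0.062). After TAC, Egr1 did not differ by the test (0.02, adjusted p = 0.90).

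Of 29 adrenergic and vasoactive signalling genes 6 rose, 1 fell and 22 were not called, beside 2.99% of all genes higher and 2.8% lower, and the list median was 0.11. Grk5 (chromosome 19, 60889749 to 61095968), a kinase that desensitises G-protein-coupled receptors, stood at 72.4, 67.6 and 72.6 CPM in T497A sham, against 46.3, 48.6 and 42.5 CPM in wild-type sham. The libraries of each group lay close together, and the log2 fold change was 0.63 ± 0.07 (adjusted p = 7.5e-05). Ednra (chromosome 8, 77663031 to 77724464), the type A endothelin receptor, stood at 82.4, 67.5 and 86.2 CPM in T497A sham, against 50.8, 41.5 and 37.9 CPM in wild-type sham (0.86 ± 0.13, adjusted p = 0.0021). Both kept their call in all alternatives, and both turned round after TAC. Grk5 then stood at 45.9, 50.0 and 43.6 CPM in T497A and at 94.2, 93.5 and 95.4 CPM in wild type (interaction -1.65 ± 0.09, adjusted p = 8.4e-08).

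Smaller rises were found for the natriuretic peptide convertases Corin (0.44 ± 0.11) and Furin (0.28) and for the adenylyl cyclases Adcy6 (0.33 ± 0.08) and Adcy5 (0.32). Adra1a, the alpha-1A adrenergic receptor, fell (-0.76). Furin, Adcy5 and Adra1a were not followed through the alternatives. Corin missed the threshold without T497A sham 1 (adjusted p = 0.099) or wild-type sham 1 (0.11), 2 (0.11) or 3 (0.059), and Adcy6 without T497A sham 1 (0.091) or 3 (0.073) or wild-type sham 1 (0.072), 2 (0.11) or 3 (0.052).

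Among potassium and sodium channels, 2 of 24 genes rose and 2 fell, beside 2.99% of all genes higher and 2.8% lower. Kcnj3, a G-protein-gated potassium channel of atrial and pacemaker cells, stood at 155, 160 and 158 CPM in T497A sham, against 116, 129 and 112 CPM in wild-type sham (0.40 ± 0.06, adjusted p = 0.0016). Kcnj12, an inward rectifier, fell by 0.39 ± 0.08 log2 units (adjusted p = 0.007), and both calls held in all alternatives. Kcne1, a potassium channel accessory subunit, rose by 1.48 ± 0.29 and lost its call without wild-type sham 1 (adjusted p = 0.051) or 2 (0.052). Hcn2, a pacemaker channel, fell by 0.70 ± 0.18 and was called neither without T497A sham 1 (0.14) or 3 (0.14) nor without any 1 of the wild-type sham libraries (0.053 to 0.14). Its call was also lost without the gene filter and with replicate number as a block. None of 25 calcium cycling genes was called: Atp2a2, which encodes the pump that refills the calcium store, differed by 0.08 ± 0.10 and its inhibitor Pln by 0.04 ± 0.11. Ryr2 differed by 0.15 ± 0.07 (adjusted p = 0.27) and was called in 2 of the 18 alternatives. Strit1, which is not on the calcium cycling list and was named after its values were seen, was called higher. Its log2 fold change was 1.30 to 2.04 over the 18 alternatives, and its call was lost in 4 of them.

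**Figure D3:**
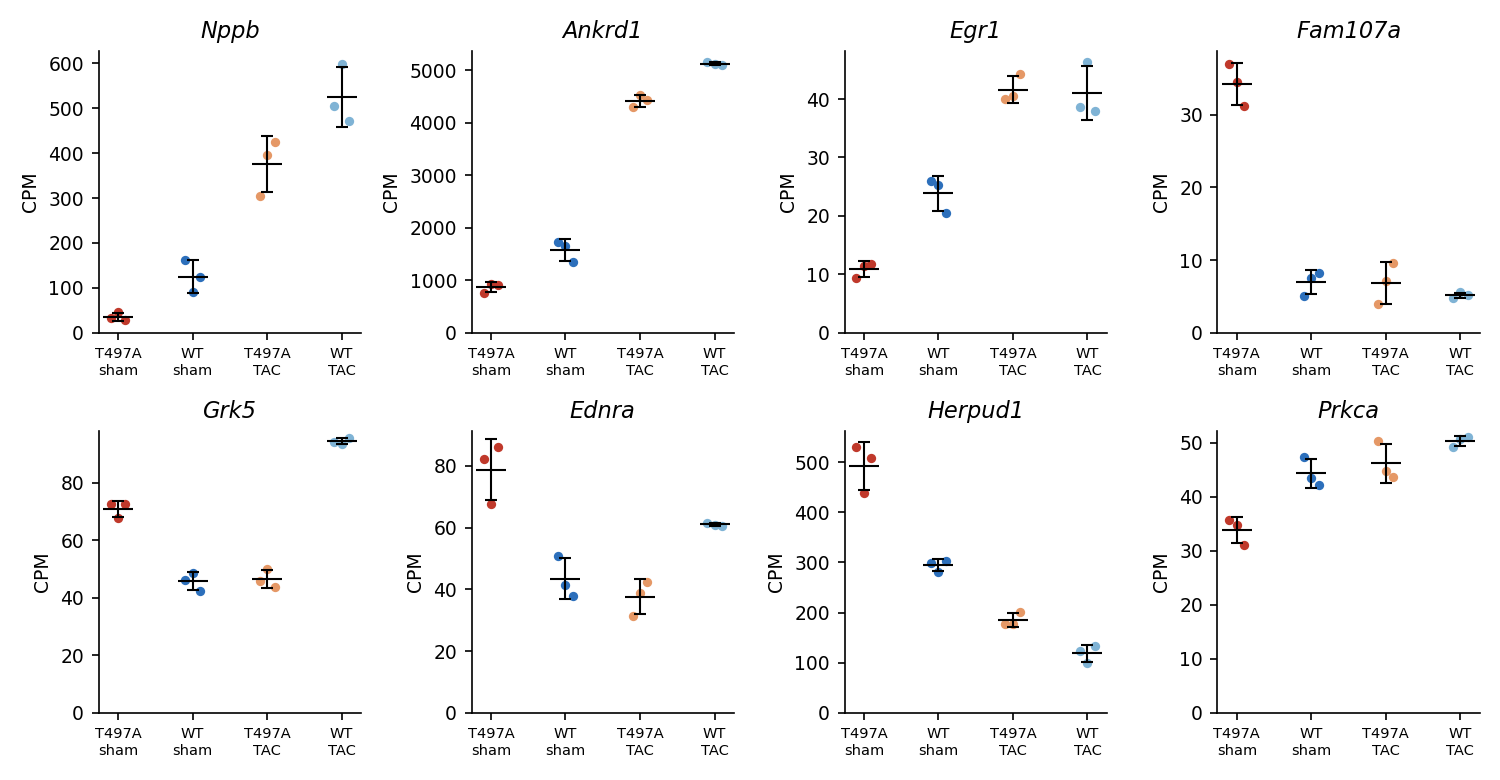
CPM of 8 genes by group, with 1 point per library and the mean and SD (n = 3) as a horizontal bar and whiskers. After sham, Nppb, Ankrd1, Egr1 and Prkca were lower in T497A than in wild type, and Fam107a, Grk5, Ednra and Herpud1 were higher, while Grk5 and Ednra had the opposite order after TAC.

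Herpud1 (chromosome 8, 94386438 to 94395377), part of the machinery that removes misfolded proteins from the endoplasmic reticulum, stood at 531, 438 and 508 CPM in T497A sham, against 299, 281 and 303 CPM in wild-type sham. It rose by 0.74 ± 0.10 log2 units (adjusted p = 0.00067) and was the only one of 28 endoplasmic reticulum stress genes called (3.57%, beside 2.99% of all genes called higher). In 16 of the 28 all T497A sham libraries lay above all wild-type ones, against 12.9% of all genes, and their median was 0.14. None of 20 ATF4 targets (median 0.26) and none of 23 heat shock genes passed.

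Few metabolic genes were called between the sham groups. Of 42 fatty acid oxidation genes Ppara, the lipid-sensing nuclear receptor, rose (0.47 ± 0.11), and its coactivator Ppargc1b (-0.53 ± 0.09) and the peroxisomal thiolase gene Acaa1a (-0.45 ± 0.08) fell. That is 2.38% higher and 4.76% lower, beside 2.99% and 2.8% of all genes. The coactivator gene Ppargc1a went the other way, at 267, 184 and 214 CPM in T497A sham against 191, 151 and 136 CPM in wild-type sham. It did not pass (0.48 ± 0.14, adjusted p = 0.068) but was called in 6 of the 18 alternatives. Cpt1b did not pass either (-0.15 ± 0.12). None of 54 nuclear respiratory chain genes (median 0.03) and none of 13 mitochondrially encoded genes was called. The mitochondrially encoded genes had a median of -0.37, only 1 of the 13 had a positive fold change, and in 9 all T497A sham libraries lay below all wild-type sham libraries, against 13.5% of all genes. Their summed level was 151270 to 166914 CPM in T497A sham and 191513 to 210119 CPM in wild-type sham. The Ppara call was lost without T497A sham 1 (adjusted p = 0.091) or wild-type sham 1 (0.086), 2 (0.12) or 3 (0.091). Of 29 glucose metabolism genes the glycogen-targeting subunit gene Ppp1r3a (0.50 ± 0.07), Hk1 (0.24 ± 0.05) and Eno3 (0.33 ± 0.09) rose and Eno1 (-0.35 ± 0.10) fell, and only Ppp1r3a was called in all alternatives. The calls were 10.3% of this list higher and 3.45% lower, beside the same 2.99% and 2.8% of all genes. Without T497A sham 2 or wild-type sham 1 or 2 the adjusted p of Hk1 was 0.059 to 0.077, without any 1 sham library that of Eno3 was 0.071 to 0.13, and Eno1 missed the threshold in 13 alternatives.

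Of 33 antioxidant and glutathione genes, Gsta3, a glutathione transferase, showed the clearest rise, at 17.0, 16.8 and 20 CPM in T497A sham against 6.28, 5.65 and 5.70 CPM in wild-type sham (1.61 ± 0.16, adjusted p = 4.0e-05). Mgst1, the microsomal transferase, stood at 16.6, 20.1 and 18.9 CPM in T497A sham against 31.8, 33.6 and 31.5 CPM in wild-type sham, and fell by 0.80 ± 0.08 (adjusted p = 4.0e-05). The other members called were Mt1 and the haem oxygenase gene Hmox1 (0.56 ± 0.14), which lost its call without T497A sham 1 (0.12) or 3 (0.13) or wild-type sham 1 (0.086), 2 (0.14) or 3 (0.077). Of the list 9.09% were called higher and 3.03% lower, beside 2.99% and 2.8% of all genes.

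The extracellular matrix list held 2 rises and 4 falls among 50 genes, with a median of -0.02. That is 4% higher and 8% lower, beside 2.99% and 2.8% of all genes. Timp3, an inhibitor of matrix proteases, stood at 352, 338 and 365 CPM in T497A sham against 249, 259 and 249 CPM in wild-type sham (0.48 ± 0.07, adjusted p = 0.0013), and Fbln1 rose by 0.74. The collagen genes Col5a3 (-0.78 ± 0.10), Col4a1 (-0.45 ± 0.09) and Col4a2 (-0.39 ± 0.08) and the fibrillin gene Fbn1 (-0.80) fell. Fbln1 and Fbn1 were not followed through the alternatives. Col4a1 lost its call without wild-type sham 2 (adjusted p = 0.054), and Col4a2 without T497A sham 1 (0.054) or 3 (0.051) or wild-type sham 1 (0.057) or 2 (0.054). The fibrillar collagens Col1a1 (-0.28 ± 0.36) and Col3a1 (-0.71 ± 0.31) did not pass, and neither did Postn (-0.03 ± 0.41). Ccn2 stood at 171, 79.6 and 122 CPM in T497A sham against 55.4, 67.2 and 59.4 CPM in wild-type sham. It did not pass (1.03 ± 0.31, adjusted p = 0.094) but was called in 4 of the 18 alternatives.

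Sarcomere, cell cycle and immune lists gave few calls, to be set beside 2.99% of all genes called higher and 2.8% lower. The thin filament gene Lmod2 (-0.30 ± 0.06) was the only one of 25 adult sarcomere genes called, and it missed the threshold without wild-type sham 3 (adjusted p = 0.057). Among 33 cell cycle genes Prc1 and Birc5 fell (6.06% of the list), and the list median was -0.58. Only 3 of the 33 had a positive fold change. In 16 all T497A sham libraries lay below all wild-type sham libraries, against 13.5% of all genes, and in none above. The summed level of the list was highest in T497A sham 1, 304 CPM, and lowest in T497A sham 3, 146 CPM, of the 6 libraries. Neither Prc1 nor Birc5 was called without T497A sham 2 or 3 or without wild-type sham 1 or 3 (adjusted p 0.072 to 0.16), and Prc1 was also lost without T497A sham 1 (0.052) and Birc5 without wild-type sham 2 (0.066). Both were lost with limma-voom and with replicate number as a block, and Prc1 without the gene filter. Birc5 was lost as well with library totals, with the robust setting off and in the fit of the 2 sham groups alone. None of 36 interferon-stimulated genes and none of 23 major histocompatibility genes was called, although the interferon list summed to 1755, 398 and 491 CPM in T497A sham and to 440, 553 and 712 CPM in wild-type sham. T497A sham 1, the library with H2-Ea, had the highest sum. Sele, the endothelial adhesion receptor E-selectin, stood at 0.653, 0.792 and 0.832 CPM in T497A sham against 1.72, 1.67 and 2.10 CPM in wild-type sham (-1.27 ± 0.20, adjusted p = 0.0019).

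Cell type markers showed no uniform move in most lists, and in these bulk samples fewer cells of a type and less RNA per cell cannot be told apart. The counts below stand beside 2.99% of all genes called higher and 2.8% lower. Of the endothelial markers 15% were called higher and 15% lower, and of the lymphatic endothelial ones 42.9% higher. Of 20 endothelial markers 3 rose (Flt1 0.46 ± 0.09, Sox17 0.70 ± 0.16, Ly6c1 0.53 ± 0.12) and 3 fell (Kdr -0.53 ± 0.12, Cdh5 -0.34, Aplnr -1.56), and their summed level was 2284 to 2554 CPM in T497A sham and 2492 to 2512 CPM in wild-type sham. Cdh5 and Aplnr were not followed through the alternatives. Each of Flt1, Sox17, Ly6c1 and Kdr lost its call without wild-type sham 2 (adjusted p = 0.059, 0.080, 0.089 and 0.057). Flt1 also lost it without wild-type sham 3, Kdr without T497A sham 1 or 2 or wild-type sham 1, Ly6c1 without T497A sham 1 or 3 or wild-type sham 1, and Sox17 without T497A sham 1 or 3 or wild-type sham 1 or 3 (adjusted p 0.050 to 0.092). Fibroblast markers gave 1 rise and 1 fall among 18, mural markers 1 rise and 3 falls among 16, and lymphocyte markers 2 falls among 14. Of 7 lymphatic endothelial markers Ccl21a (0.90 ± 0.17), Reln (0.56 ± 0.11) and Mmrn1 (0.56 ± 0.14) rose and none fell, with sums of 190 to 204 CPM in T497A sham and 165 to 175 CPM in wild-type sham. Mmrn1 missed the threshold without any 1 of the T497A sham libraries (0.066 to 0.086) and without wild-type sham 1 (0.069) or 3 (0.13). The phagocytic receptor gene Mertk (0.64 ± 0.12) was the only one of 18 macrophage markers called, and Kit (-0.74 ± 0.14) the only one of 7 neutrophil and mast cell markers.

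The largest autosomal rises ranged from genes near 0 to genes of moderate level in wild-type sham. Gpr179, an orphan receptor known from retinal bipolar cells, stood at 8.43, 8.85 and 13.6 CPM in T497A sham, against 0.205, 0.0734 and 0.135 CPM in wild-type sham (6.19 ± 0.64, adjusted p = 0.00043). Cacng6, a calcium channel gamma subunit, stood at 14.1, 14.7 and 13.4 CPM in T497A sham, against 2.29, 2.44 and 2.72 CPM in wild-type sham (2.50 ± 0.22, adjusted p = 2.7e-05). Tent5b, a cytoplasmic poly(A) polymerase, stood at 7.97, 8.41 and 8.64 CPM in T497A sham, against 1.47, 0.807 and 1.42 CPM in wild-type sham (2.75 ± 0.33). In all 3 the groups were far apart. The other 9 of the 12 largest rises were Selenbp2 (4.94), AA465934 (4.68), Eno1b (4.54), Abhd1 (3.35), Igsf23 (2.53), Fam107a (2.30), Angptl7 (2.03), AI838599 (1.87) and Hddc3 (1.86).

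Among the 12 largest falls, Drc3, a subunit of the ciliary dynein regulatory complex, stood at 0.719, 0.472 and 0.616 CPM in T497A sham, against 4.54, 4.42 and 5.02 CPM in wild-type sham (-2.95 ± 0.30, adjusted p = 6.7e-05). C7, a terminal complement component, stood at 2.16, 4.04 and 5.77 CPM in T497A sham, against 14.3, 15 and 14.3 CPM in wild-type sham (-1.86 ± 0.25, adjusted p = 0.0015). Cdh4, R-cadherin, stood at 1.08, 1.22 and 1.46 CPM in T497A sham, against 4.71, 5.14 and 3.55 CPM in wild-type sham (-1.83 ± 0.18, adjusted p = 4.0e-05). The groups did not overlap in any of the 3. The others were Hba-a2 (-7.16), Cd300ld (-2.23), Pde11a (-2.16), Nppb, B3galt2 (-1.75), Rnf157 (-1.74), Rpl26 (-1.73), Iqgap3 (-1.70) and Shisa4 (-1.59). Of the 24, AA465934, Angptl7, AI838599, Hddc3, Hba-a2, Cd300ld and Shisa4 lost their calls when single sham libraries were left out (adjusted p up to 0.15), and the other 17 were called in every alternative that tested them. On chromosome 11, which carries Prkca, lie Gpr179, AA465934, Hba-a2, Drc3, Cd300ld, Rnf157 and Rpl26 of the 24. Unlike Rpl26, most of 50 ribosomal protein genes tested had a positive fold change (43, median 0.12). Of the 50, 4 were called higher (8%) and 1 lower (2%), beside 2.99% and 2.8% of all genes. In 34 all T497A sham libraries lay above all wild-type sham ones, against 12.9% of all genes, and in 3 below.

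Some of these genes have a near-identical copy, so the split of reads between copies is uncertain. Hba-a2 and Hba-a1, the alpha globin genes, summed to 85.8 ± 2.03 CPM in T497A sham and to 43.6 ± 6.91 CPM in wild-type sham (SD, n = 3 each). Eno1b and Eno1 summed to 64.0 ± 7.87 CPM in T497A sham and to 74.3 ± 1.40 CPM in wild-type sham. The sum of Selenbp2 and Selenbp1 was 97.6 ± 6.45 CPM in T497A sham and 90.6 ± 4.54 CPM in wild-type sham. The levels of Eno1b and Selenbp2 were small beside those of their copies.

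Chromosome 11, which carries Prkca, had the highest share of called genes among the autosomes. Of 1410 genes tested on it 151 were called (10.7%), 72 higher and 79 lower, against 836 of 15683 (5.33%) on the other autosomes, where chromosome 4 came next with 8.07%. The count on chromosome 11 was 92 without T497A sham 3, 90 without wild-type sham 1, 90 without wild-type sham 2 and 89 without wild-type sham 3, and 233 by the DESeq2 test. The other autosomes ranged down to 3.31% on chromosome 17. Within 20 Mb of the Prkca start site 69 of 544 genes were called (12.7%), 35 higher and 34 lower, and beyond 20 Mb 82 of 866 (9.47%). The share was uneven along the chromosome. On the side of rising coordinates, in bins of 10 Mb, it was 17.2% of 134 genes next to the start site. In the next bin, 10 to 20 Mb away, it was 3.37% of 89 genes. It was 12.1% of 199 genes just below the start site and 20% of 125 genes between 40 and 50 Mb below it. These shares describe neighbouring genes, which are not independent, and were not tested.

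Close to Prkca, Rnf157, a ubiquitin ligase gene 8.1 Mb away, stood at 2.60, 2.74 and 2.75 CPM in T497A sham, against 8.73, 9.21 and 9.03 CPM in wild-type sham (-1.74 ± 0.16, adjusted p = 3.2e-05). Rab37, a small GTPase of secretion 6.7 Mb away, stood at 0.327, 0.152 and 0.166 CPM in T497A sham, against 1.26, 1.6 and 1.67 CPM in wild-type sham (-2.80 ± 0.33). Its neighbours of the CD300 receptor family went both ways: Cd300e (3.54) and Cd300lf (3.5) were higher and Cd300ld (-2.23) lower. On the other side of Prkca, Tmem100, an endothelial membrane protein gene, stood at 9.01, 6.70 and 8.57 CPM in T497A sham, against 23.9, 21.9 and 25.4 CPM in wild-type sham (-1.55 ± 0.23), and Elobl at 0.163, 0.228 and 0.133 CPM in T497A sham with no count in wild-type sham. Gpr179, the largest of the rises named above, lies on that side too, at -11.0 Mb. The neighbourhood thus held sharply changed genes in both directions. Cd300lf missed the threshold without T497A sham 1 (adjusted p = 0.055) or 3 (0.051) or wild-type sham 1 (0.065) or 3 (0.091), and Elobl without wild-type sham 1, 2 or 3 (0.052 to 0.054).

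**Figure D4:**
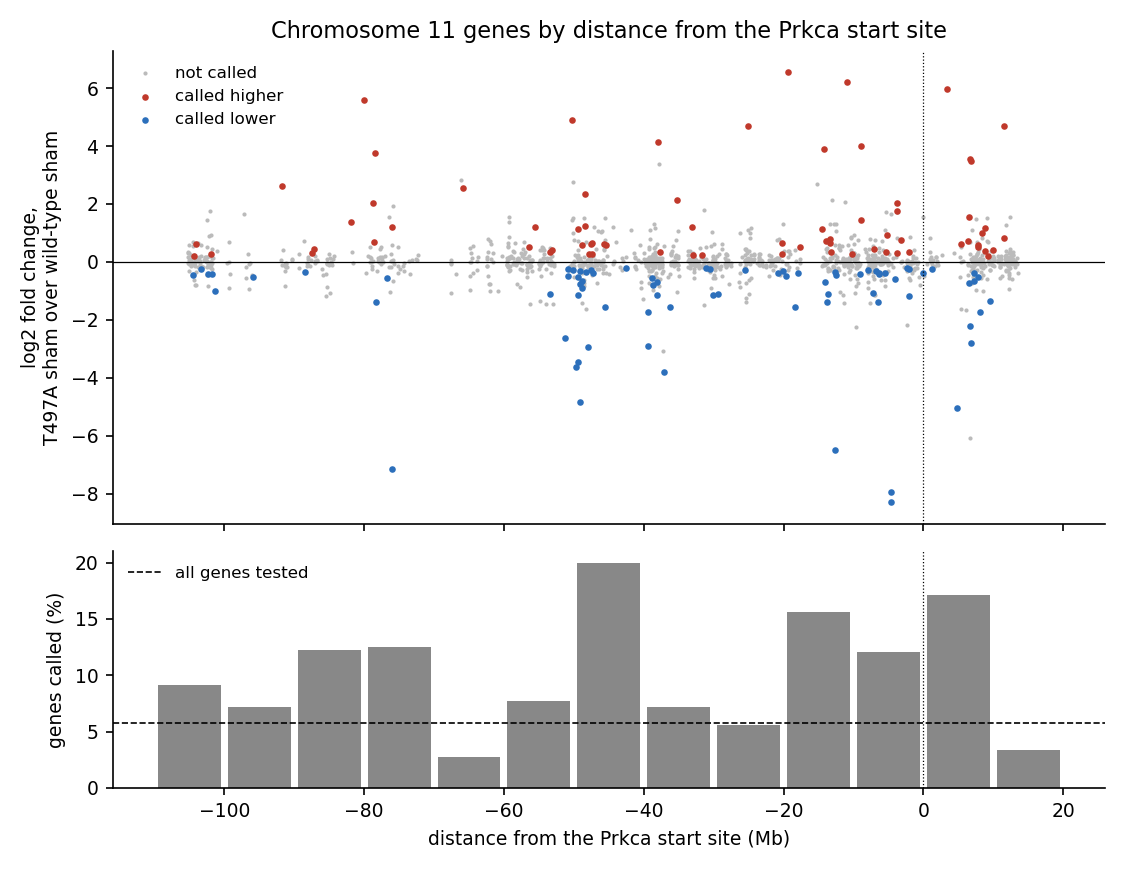
The upper panel places each chromosome 11 gene tested by its distance in Mb from the Prkca start site and by its log2 fold change, T497A sham over wild-type sham, with called genes in red (higher) and blue (lower). The bars below give the percentage of genes called in bins of 10 Mb, with the share over all genes tested, 5.79%, as a dashed line, and reach 20% in the highest bin.

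The same genes were then set beside the genotype comparison after TAC, which shares no library with the sham comparison. Of the 1024 genes called after sham, 714 had the opposite sign after TAC and 310 the same sign. When only genes also called after TAC were counted, 417 had the opposite sign (40.7%) and 158 the same sign (15.4%), in a comparison that called 17.8% of all genes higher and 17.9% lower. These 2 counts were 263 and 91 without T497A sham 3, 245 and 75 without wild-type sham 1, 227 and 69 without wild-type sham 2, and 225 and 78 without wild-type sham 3, and without T497A sham 1 the second was 90. The difference between the 2 genotype effects was itself called for 787 of the 1024 (76.9%), but these genes were chosen by their sham difference, which enters that test. Among the 266 autosomal genes changed at least 2-fold after sham, 136 were called with the opposite sign after TAC and 18 with the same sign.

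Single genes show what this reversal looked like. Gpr179 stood at 8.43 to 13.6 CPM in T497A sham and 0.0734 to 0.205 CPM in wild-type sham, but after TAC at 0.0455, 0.462 and 0.129 CPM in T497A and at 5.59, 2.44 and 5.72 CPM in wild type. Drc3 was low in T497A sham and high in wild-type sham, but its levels after TAC were 4.08, 3.78 and 3.33 CPM in T497A and 0.869, 1.76 and 0.693 CPM in wild type. Both genes lie on chromosome 11, Gpr179 at -11.0 Mb and Drc3 at -48.0 Mb from the Prkca start site. In both genes the genotype label with the higher level after sham was the one with the lower level after TAC, and whether libraries or labels were exchanged was not tested. On chromosome 11, 59.6% of the genes called after sham were called with the opposite sign after TAC and 5.96% with the same sign, against 38.2% and 17.1% on the other autosomes. Genes with the same sign and a call after both surgeries included Klf15, Herpud1, Gsta3, Corin, Ppara, Col5a3 and Col4a1. Gsta3 stood at 4.11, 4.40 and 4.25 CPM in T497A TAC and at 2.30, 1.82 and 3.15 CPM in wild-type TAC.

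**Figure D5:**
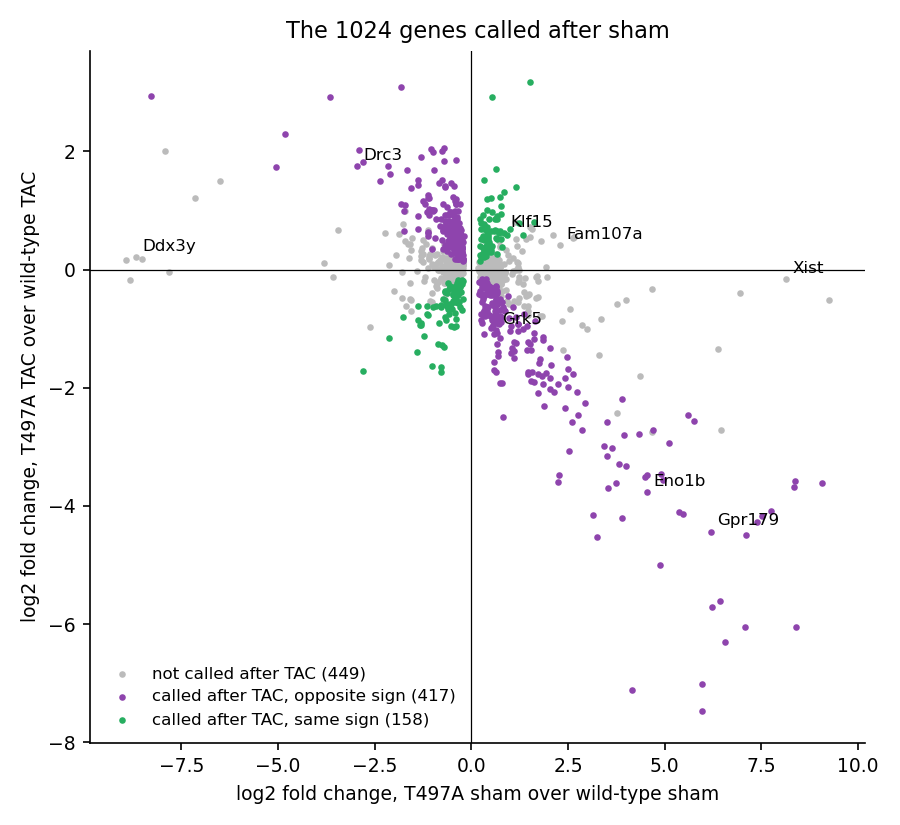
Each point is 1 of the 1024 genes called after sham, with the log2 fold change of T497A over wild type after sham on the horizontal axis and after TAC on the vertical axis. Purple points (417) were called after TAC with the opposite sign, green points (158) with the same sign, and grey points (449) were not called after TAC.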

How the data were processed

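RNA was extracted from murine heart tissue and made into libraries with the KAPA mRNA HyperPrep kit, which were sequenced single-end for 50 cycles on a NextSeq2000, per the labels' protocols. The deposited values are whole-number counts per gene for 12 libraries, 55401 gene IDs in all, and per the submitters' processing notes the tools were Trim Galore 0.6.4, STAR 2.7.3a, featureCounts (Subread 1.6.3) and limma 3.50.3. Those notes name the builds mm10 and GRCh38 without a role, and all gene IDs are mouse IDs. The sources used here name no annotation, strand setting or treatment of multiply mapped reads, so overlapping, antisense and duplicated genes are uncertain. GENCODE M21 (GRCm38) gave names and positions for 55141 of the IDs.

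The counts were tested in R 4.3.3 with edgeR 4.0.16: filterByExpr kept 17699 genes, TMM factors scaled library totals, and 1 mean for each of the 4 groups was fitted over all 12 libraries by robust quasi-likelihood, with Benjamini-Hochberg adjustment over all genes and a threshold of 0.05. Each library held 58932759 to 72594085 counts. Replicates of a sham group differed by far more than sampling noise (chi-square per degree of freedom 11.4 to 45.6), so none looked like 1 library deposited again, which does not show that they came from separate mice. Log2 CPM used a prior count of 2. Alternatives used limma 3.58.1 and DESeq2 1.42.0.

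The comparison, its gene lists and its tests were chosen with earlier results of these data known, and lists carry no test of their own. Genes open to naming were 23 chosen ones, the 12 largest rises and 12 largest falls (autosomal, called, at least 1 CPM on average, no overlap), up to 4 called members of a list by smallest p, all sex-linked and strain list members, and the 8 most changed called genes within 20 Mb of Prkca. Not every list member among them was described above. Of the chosen genes, Ppp1r1a has no other mention and was not called (-0.40 ± 0.33). Other members of the glucocorticoid list, genes with a promoter match, neighbours by sequence copy, Myl7, Adcy5, Furin, Adra1a, Fbln1, Fbn1, Cdh5 and Aplnr were named after their values were seen.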

Additional observations from a re-analysis of the deposited data

Results flagged for a closer look

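Results listed here are genes named above and called after sham whose T497A minus wild-type difference after TAC differed from that after sham by the interaction test (edgeR's quasi-likelihood test with Benjamini-Hochberg adjustment), as was the case for 787 of the 1024 genes called after sham. Values are the difference after TAC minus the difference after sham in log2 units, so that a negative one means a lower T497A level, relative to wild type, after TAC.

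Sex-linked transcripts were flagged, and only the T497A sham libraries were Xist-high: Xist -8.30, Ddx3y 8.88, Eif2s3y 8.65, Kdm5d 8.68, Uty 9.10, Kdm6a -0.41, Kdm5c -0.82, Ddx3x -0.40, Eif2s3x -0.42, Utp14a -0.37 and Pbdc1 -1.05. Of the 12 X inactivation and escape genes tested, 1 was called higher and 1 lower after TAC, where both groups were Xist-low. For genes that follow the Xist-high state, that state cannot be told apart from a genotype effect that differs by surgery. The autosomal gene Gpr179 was high in the Xist-high T497A sham libraries and also in wild-type TAC, which was Xist-low, at 5.59, 2.44 and 5.72 CPM. The part of the Xist-high state in its level was not tested. Whether libraries or labels were exchanged was not tested.

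Glucocorticoid-responsive genes had lower T497A values relative to wild type after TAC than after sham in Fkbp5 (-2.15), Cdkn1a (-2.99), Hif3a (-2.52), Mt1 (-1.17), Zbtb16 (-1.10) and Tsc22d3 (-0.90). Fam107a (-1.88) and Strit1 (-2.56), whose promoters matched the same motif, did so too. Stretch and immediate early genes were flagged with positive values in Nppb (1.31), Ankrd1 (0.65), Egr1 (1.15), Fos (1.62) and Btg2 (1.56) and with a negative one in Maff (-1.05).

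Signalling and channel genes were flagged in Grk5 (-1.65), Ednra (-1.56), Mtor (0.60), Kcnj3 (0.79), Kcnj12 (1.03), Kcne1 (-1.89) and Hcn2 (1.14). The metabolic and antioxidant genes flagged were Ppargc1b (1.02), Acaa1a (0.99), Hk1 (-0.65), Eno3 (0.35), Gsta3 (-0.80), Mgst1 (1.53) and Hmox1 (-1.16), and the sarcomere gene was Lmod2 (0.99). Matrix and vessel genes with such a difference were Timp3 (-0.77), Col4a1 (-0.53), Col4a2 (-0.57), Kdr (0.59), Sox17 (-0.75), Ly6c1 (-0.78), Reln (-0.53), Mmrn1 (-0.68), Ccl21a (-1.05) and Sele (1.64). Mertk (-1.06) and Kit (1.38) were flagged among immune markers.

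Of the largest rises after sham, all 12 were flagged with negative values: Gpr179 (-10.63), Selenbp2 (-8.51), Eno1b (-8.31), AA465934 (-7.42), Igsf23 (-5.60), Tent5b (-5.22), Abhd1 (-4.20), AI838599 (-4.19), Cacng6 (-4.18), Angptl7 (-3.36), Hddc3 (-3.05) and Fam107a. Of the largest falls, 11 of 12 were flagged with positive values: Hba-a2 (8.36), Drc3 (4.70), Pde11a (3.92), Cdh4 (2.93), Cd300ld (2.84), Rpl26 (2.81), B3galt2 (2.75), C7 (2.46), Rnf157 (2.38), Iqgap3 (1.09) and Nppb, while Shisa4 was not. Hba-a1 had -1.75, opposite to its copy Hba-a2. Near Prkca, Cd300e (-7.24), Cd300lf (-6.66), Rab37 (4.63) and Tmem100 (2.93) were flagged. Fitted values of genes close to 0 in a group depend on the prior count.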

How the results depend on the processing

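There were 18 alternatives, 17 of them planned and the fit without wild-type TAC 2 chosen after seeing the data. Each of 151 genes was tested in 15 to 18 of them, 110 were called and 54 of these were called in every alternative that tested them, and no called value changed sign. Lost calls are given above mainly for left-out libraries, and some genes lost theirs in other settings too. Such losses included Mtor with library totals and Corin, Kdr and Ly6c1 without the gene filter. Hmox1 and Mmrn1 were lost with the replicate block, and Cd300lf with limma-voom. The DESeq2 test moved counts by over 1.5 times: 1697 genes called, 891 higher and 806 lower, 233 on chromosome 11, and 662 called after TAC with the opposite and 281 with the same sign. For limma-voom the last 2 counts were 689 and 277. Leaving out 1 library gave 505 to 1607 calls, 264 to 798 higher and 241 to 809 lower, 3 to 10 glucocorticoid-responsive genes, 89 to 222 genes on chromosome 11, and 225 to 599 calls with the opposite and 69 to 237 with the same sign after TAC. The sham libraries left out also left fewer samples. The other settings left each of these counts within 1.5 times of the reported one. Replicate numbers did not pair the sham libraries: same-numbered ones deviated from their group means with correlations of -0.07, 0.01 and -0.08. With the replicate block 862 genes were called, 448 higher and 414 lower, and 819 of the 1024 were kept. At 3 libraries a group, small differences may go uncalled: 3495 genes had an unadjusted p under 0.05. Sex-linked state and genotype label coincide among the sham libraries, and no alternative separates them.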
